A study of Drosophila melanogaster with 7 samples.

Results

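Of the 9 apical-basal polarity genes considered (*par-1*, *par-6*, *scrib*, *baz*, *aPKC*, *dlg1*, *l(2)gl*, *crb* and *sdt*), 7 were measured by 10 cDNA clones among the 10376 features of the arrays. A clone was taken as a measurement of a gene only where the platform annotation gave that gene as its single name. *scrib*, *dlg1* and *sdt* had 2 clones each, and *par-6*, *aPKC*, *crb* and *l(2)gl* had 1 each. *baz* had no feature with its name. The clones annotated to *par-1* also carried the name of *mei-W68*, so *par-1* had no clone of its own and is taken up at the end.

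RNA of *lolaORC4* homozygous embryos was set against RNA of controls on 7 spotted cDNA arrays with 2 dyes, each holding 1 mutant and 1 control sample collected in parallel. Mutants were *w1118* and carried *lolaORC4* on both homologues, recombined with *sca-GAL4* on the one and with *UAS-tau-eGFP* on the other. Controls were *w1118; sca-GAL4/UAS-tau-eGFP*, so both groups carried the *sca-GAL4* driver, which acts in neural precursors, and the GFP reporter by which embryos were sorted. *lola* encodes a family of BTB transcription factors made by alternative splicing, and *lolaORC4* inactivates isoform K alone. Embryos were 10 to 12 hours old, about 300 to a sample, and whole. Both recombinant chromosomes were made from the same *lola* allele, so any modifier linked to it could be homozygous in the mutant, which the controls do not account for. Embryos also hold Lola supplied by the mother. In RNA of whole embryos, fewer cells of a type and less RNA per cell cannot be told apart.

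Epithelial cells and neuroblasts divide their cortex into an apical and a basal or basolateral domain. In *Drosophila* the apical side is set by the Par complex (Bazooka, Par-6 and the kinase aPKC) and by the Crumbs complex (Crumbs and its scaffold Stardust), and the basolateral side by the Scribble module (Scribble, Discs large and Lethal giant larvae) and the kinase Par-1. The groups antagonise each other, largely by phosphorylation: aPKC expels Lethal giant larvae and Par-1 from the apical cortex, and Par-1 keeps Bazooka off the lateral membrane. At the age sampled these proteins maintain the epidermis, tracheae and other epithelia and act in neuroblasts and developing neurons.

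Each value is the log2 of the ratio between the 2 samples of an array, so it gives a difference and no level. Which sample stands on top of the ratio is not settled. The sample labels put the mutant in Cy3 on replicates 1, 4 and 6 and in Cy5 on replicates 2, 3, 5 and 7, while the methods count the orientations the other way round, and neither states whether ratios were turned before deposit. No pair of arrays ran against each other, with r between pairs from 0.06 to 0.72 over all features. The deposited values of each array correlated negatively with the changes the study lists for the *lola* null (r from -0.84 to -0.62). Values are given here with the sign turned, so that they run with the null. Positive would mean higher in the mutant if *lolaORC4* moves RNA as the null does. This was not tested, and the opposite reading reverses every sign below without changing any size, count or p.

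Over all features, 7.64% passed an adjusted p under 0.05 for a mean log2 ratio different from 0 (*limma*, Benjamini-Hochberg), 3.18% with a positive and 4.46% with a negative mean. Of the 10 polarity clones 2 passed, 1 in each direction: *scrib* clone SD05339 was positive and the *par-6* clone negative. The study's own selection of genes altered in the *lola* null already names *par-1*, *par-6* and *scrib* under polarity. The members were chosen with that known, so their share is no neutral comparison with all features. The other 8 clones did not pass, and the 95% intervals of their means together ran from -0.24 to 0.40, so that a 1.32-fold difference was the largest that any of these intervals held. The median absolute mean was 0.089 for the 10 clones and 0.061 for all features. The median residual SD between arrays was 0.19 for the 10 clones and 0.14 for all features. The 8 clones that did not pass varied more than most features, and the *par-6* and *scrib* clones that passed varied less, with a residual SD above that of 27.3% and 13.8% of features.

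**Figure D1:**
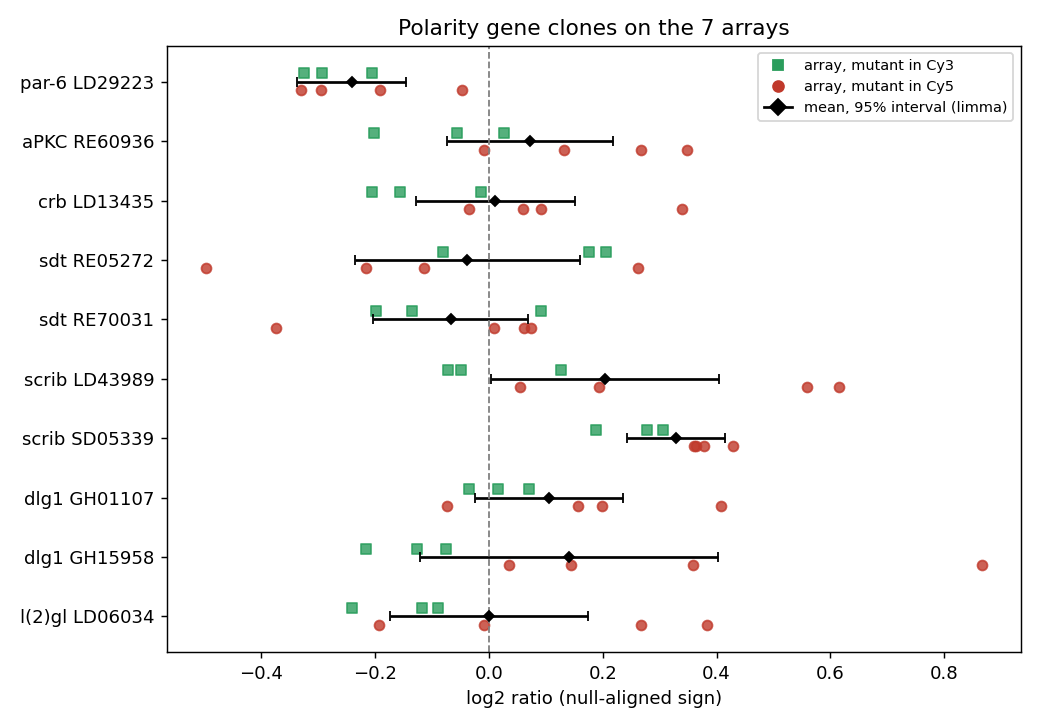
Log2 ratios (null-aligned sign) of the 10 polarity clones, 1 row per clone; squares are the 3 arrays with the mutant in Cy3, circles the 4 with the mutant in Cy5, and diamonds with bars the mean with its 95% interval from *limma*. All 7 points lie below 0 for *par-6* and above 0 for *scrib* SD05339, and each other clone has points on both sides of 0.

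Among the apical genes, *par-6* encodes a PDZ scaffold that ties aPKC to the GTPase Cdc42. Its clone LD29223 had a lowest log2 ratio of -0.33 (replicate 7), a median of -0.29 and a highest of -0.05 (replicate 2), so that it was negative on 7 of 7 arrays and close to 0 on 1 of them. The mean was -0.24 ± 0.10 (SD, n = 7), a 1.18-fold difference, with a standard error of 0.043 and an adjusted p of 0.0094 (*limma*). In absolute size this mean exceeded that of 92.9% of all features. The clone was at -0.27 on average with the mutant in Cy3 and -0.22 with the mutant in Cy5. It passed without any 1 of the arrays (adjusted p up to 0.035, *limma*). On the 4 arrays with the mutant in Cy5 taken alone it did not pass (adjusted p = 0.081, *limma*).

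*aPKC* encodes the atypical protein kinase C of the same complex and lies on chromosome arm 2R, the arm that carries *lola*. Clone RE60936 ran from -0.20 on replicate 1 to 0.35 on replicate 2, with a median of 0.03, positive on 4 arrays and negative on 3. Its mean of 0.07 ± 0.19 (SD, n = 7) was within the spread between arrays (adjusted p = 0.58, *limma*; 95% interval -0.07 to 0.22), and it was 0.03 without replicate 2, 0.04 without replicate 5, 0.12 without replicate 1 and -0.02 without replicates 2 and 5. A further clone, RE46351, is annotated to *aPKC* and *Gp150* together and was at 0.04 ± 0.13 (SD, n = 7).

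*crb* encodes the transmembrane protein Crumbs, the apical determinant of embryonic epithelia. Clone LD13435 ran from -0.20 on replicate 4 to 0.34 on replicate 2, with a median of -0.01. The mean was 0.01 ± 0.18 (SD, n = 7; adjusted p = 0.95, *limma*; 95% interval -0.13 to 0.15). It was positive on 3 arrays and negative on 4, and the next highest value after that of replicate 2 was 0.09.

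*sdt* encodes Stardust, a membrane-associated guanylate kinase that holds Crumbs at the apical membrane. Clone RE05272 ran from -0.50 on replicate 2 to 0.26 on replicate 7 with a median of -0.08 (mean -0.04 ± 0.27, SD, n = 7; adjusted p = 0.86, *limma*). Clone RE70031_ReAmp ran from -0.37 on replicate 7 to 0.09 on replicate 1 with a median of 0.01 (mean -0.07 ± 0.18, SD, n = 7; adjusted p = 0.58, *limma*), and its mean was -0.02 without replicate 7. The 2 clones were lowest on different arrays, and replicate 7 was the highest for the one and the lowest for the other. Their difference averaged -0.03 ± 0.40 (SD, n = 7; exact sign-flip permutation test, two-sided, p = 0.89).

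Among the basolateral genes, *scrib* encodes a cortical scaffold with leucine-rich repeats and PDZ domains. Clone SD05339 had a lowest log2 ratio of 0.19 (replicate 4), a median of 0.36 and a highest of 0.43 (replicate 5), and was positive on 7 of 7 arrays. The mean was 0.33 ± 0.08 (SD, n = 7), a 1.26-fold difference, with a standard error of 0.038 and an adjusted p of 0.0010 (*limma*). This was the largest mean of the 10 clones and exceeded 95.9% of all features in absolute size. It passed without any 1 of the arrays, at a mean of 0.31 to 0.35, and on the arrays of either dye orientation alone, at 0.26 with the mutant in Cy3 and 0.38 with the mutant in Cy5.

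The other *scrib* clone, LD43989, had a lowest value of -0.07 (replicate 4), a median of 0.13 and a highest of 0.61 (replicate 5), and was positive on 5 of 7 arrays. Its values were high on replicates 2 and 5, at 0.56 and 0.61, and between -0.07 and 0.19 on the other 5 arrays. The mean was 0.20 ± 0.28 (SD, n = 7). This had an unadjusted p of 0.047 and an adjusted p of 0.22 (*limma*), and without replicates 2 and 5, an alternative chosen after seeing the values, it was 0.05. SD05339 was the higher of the clones on 5 of 7 arrays, by 0.13 ± 0.23 on average (SD, n = 7; exact sign-flip permutation test, two-sided, p = 0.22, adjusted p = 0.66 over 3 pairs, where 0.016 is the smallest p that 7 arrays allow). LD43989 was at 0.0015 on average with the mutant in Cy3 and at 0.36 with the mutant in Cy5. With the clones averaged before the fit and p adjusted over genes, *scrib* was at 0.27 (standard error 0.059, adjusted p = 0.025, *limma*).

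*dlg1* encodes Discs large, a scaffold of the guanylate kinase family that works with Scribble. Clone GH01107 ran from -0.07 on replicate 7 to 0.41 on replicate 5, with a median of 0.07 and a mean of 0.11 ± 0.16 (SD, n = 7; adjusted p = 0.34, *limma*), which was 0.06 without replicate 5. Clone GH15958 ran from -0.22 on replicate 4 to 0.87 on replicate 2, with a median of 0.04 and a mean of 0.14 ± 0.37 (SD, n = 7; adjusted p = 0.55, *limma*). The mean of GH15958 was 0.02 without replicate 2 and -0.05 without replicates 2 and 5. The 2 clones differed by 0.04 ± 0.30 on average (SD, n = 7; exact sign-flip permutation test, two-sided, p = 0.94).

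*l(2)gl* encodes Lethal giant larvae, the WD-repeat protein that aPKC phosphorylates. Clone LD06034 ran from -0.24 on replicate 1 to 0.38 on replicate 2 with a median of -0.09, positive on 2 arrays and negative on 5. Those 2 arrays were replicates 2 and 5, and the mean over all 7 was 0.0002 ± 0.24 (SD, n = 7; adjusted p = 0.999, *limma*; 95% interval -0.17 to 0.17). Without replicates 2 and 5 the mean was -0.13 (adjusted p = 0.17, *limma*). Of the 5 clones of the Scribble module, 1 passed. All 5 means were at or above 0 over the 7 arrays. With the mutant in Cy3 alone, those of *dlg1* GH15958 and *l(2)gl* were below 0 (-0.14 and -0.15). Both were also below 0 without replicates 2 and 5. Those arrays were chosen because the clones were high there, so this fall was given in advance.

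**Figure D2:**
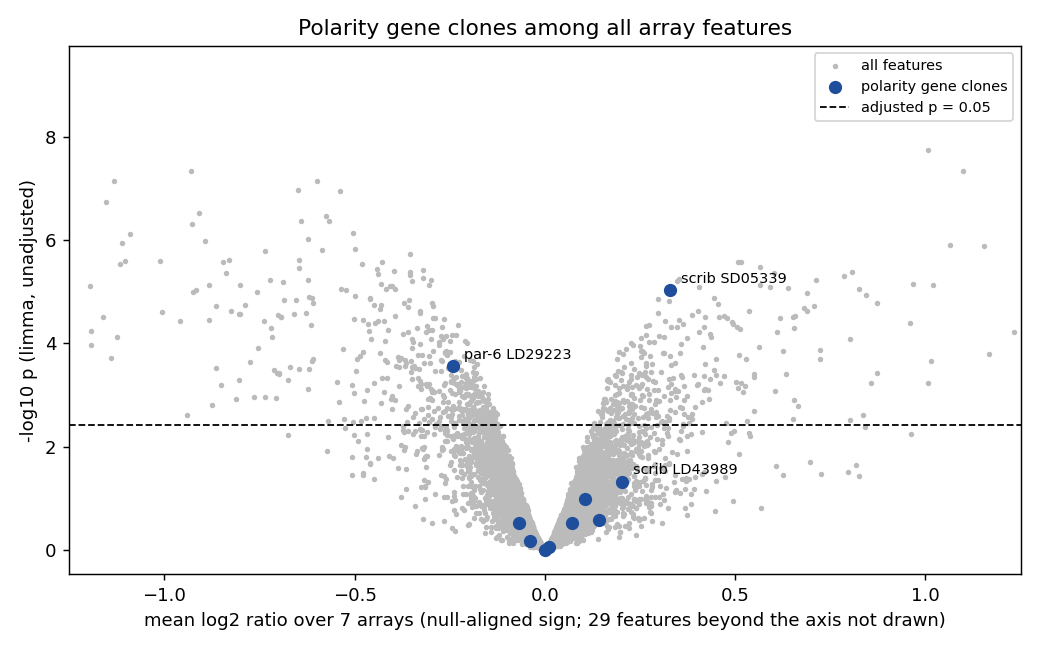
Mean log2 ratio over the 7 arrays (null-aligned sign) against -log10 of the unadjusted p from *limma*, for all features (grey) and the 10 polarity clones (blue); the dashed line marks an adjusted p of 0.05, and 29 features beyond the axis are not drawn. *scrib* SD05339 and *par-6* LD29223 lie above the line and the other 8 clones below it.

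The clones shared a pattern between arrays that their means do not show, and clones of other genes showed it too. On replicate 2 and on replicate 5, 9 of the 10 clones lay above their own mean, against 49.3% and 44.9% of all features. On replicate 6 none of the 10 did (48.6% of all features). The highest value of a clone was that of replicate 2 for 5 clones and that of replicate 5 for 3, while over all features replicate 2 held the highest value of 22.6% and replicate 5 that of 9.57%. The median of the 10 clones was 0.34 on replicate 2, 0.27 on replicate 5 and from -0.08 to 0.11 on the other arrays. The exception on both arrays was *sdt* clone RE05272, at -0.50 and -0.22. Replicate 2 had the lowest array weight (0.62, *limma*), and the other arrays had 0.92 to 1.31, with 1.18 for replicate 5. As deposited, it also had the weakest correlation with the study's list for the null (r = -0.62).

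Replicates 2 and 5 both had the mutant in Cy5. A coefficient for the dye orientation, the mean with the mutant in Cy5 minus that with the mutant in Cy3, was positive for 9 of the 10 clones (47.9% of all features), with a median of 0.20 against -0.01 for all features. It ran from -0.24 for *sdt* clone RE05272 to 0.49 for *dlg1* clone GH15958. None of the 10 passed (adjusted p from 0.13 to 0.92, *limma*), whereas 10.6% of all features did. An unadjusted p under 0.05 was found for 4 of them (*limma*). The share of all features with such a p was not counted, so the 4 cannot be read as particular to these clones. Of the other arrays with the mutant in Cy5, replicate 3 had 6 clones above their own mean and replicate 7 had 2, so the 4 arrays of that orientation were not alike. Among regulators of the complexes, clone LD04638 of *cno*, which encodes the junction protein Canoe, was also highest on replicates 5 and 2 (0.64 and 0.45), and its dye coefficient of 0.60 passed (adjusted p = 0.042, *limma*). The other *cno* clone, LD24616, was also highest on replicates 2 and 5 (0.48 and 0.44), with a dye coefficient of 0.36 that did not pass (adjusted p = 0.12, *limma*). The pattern was not confined to polarity genes. Clones of the junction genes *pyd* (LD43161), *ed* and *Nrg* were also highest on replicates 2 and 5. So were those of the glial marker *repo* and the hemocyte marker *srp*, while that of *veli* was lowest there. The other clones of *pyd* differed. LD02541 was highest on replicates 5 and 3 (0.26 and 0.20), and LP05923_ReAmp on replicates 6 and 3 (0.21 and 0.17). These clones were picked out after their values were seen. Replicates 2 and 5 shared a dye orientation with replicates 3 and 7, where the median of the 10 clones was 0.11 and -0.02. The part of dye orientation in the pattern was not tested beyond the dye coefficient.

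**Figure D3:**
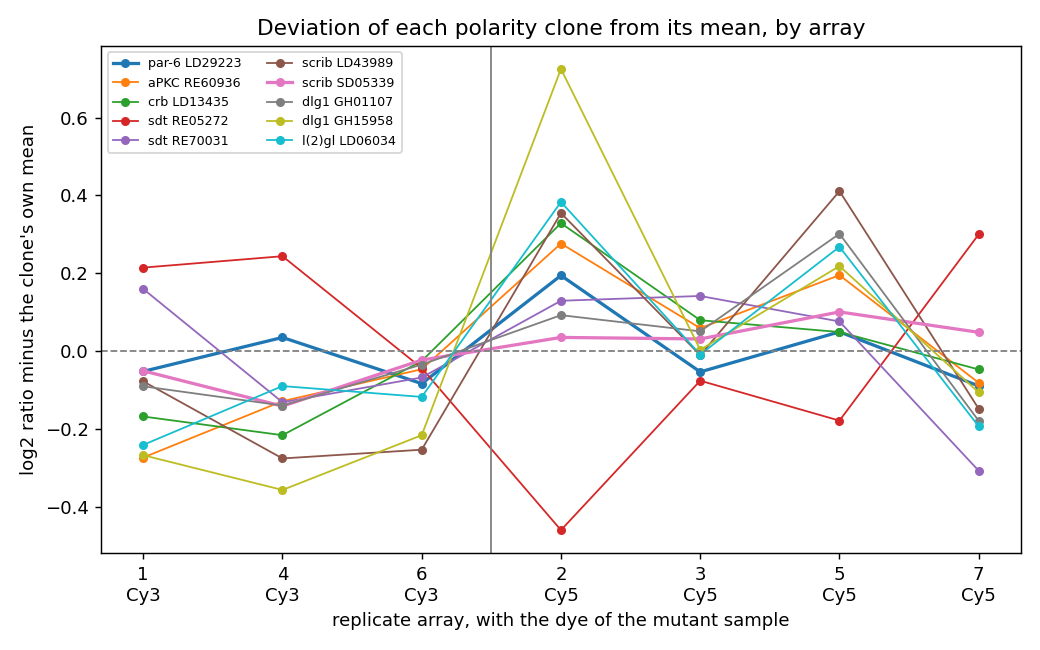
Log2 ratio of each of the 10 polarity clones minus its own mean, for the 3 arrays with the mutant in Cy3 (left) and the 4 with the mutant in Cy5 (right); each line is a clone, and thick lines are *par-6* LD29223 and *scrib* SD05339. On replicates 2 and 5, 9 of 10 lines lie above 0, and *sdt* RE05272 lies below.

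The clone of *par-6* was most like those of *CG9717* (RE02508) and *CG6834* (RE52979), with a root mean square difference over the 7 arrays of 0.047 and 0.057 on the log2 scale. *scrib* clone SD05339 was most like those of *anchor* (LD04710) and *Iml1* (LD36407), at 0.064 and 0.078. The points of such a comparison share the same 7 hybridizations, and likeness here follows size as much as shape: the 4 clones had means of -0.24, -0.23, 0.30 and 0.27.

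Clones with a shared annotation gave the remaining values. *par-1*, a kinase of the basolateral cortex, was named with *mei-W68* for GH01890 and GH14769, and with *mei-W68* and *CG14667* for RE47050_ReAmp. *mei-W68*, the *Drosophila* Spo11 homologue of meiotic recombination, lies inside the span of *par-1* in the gene table, so these clones were not assigned to either here, although the study's list for the null names the first of them as *par-1*. GH01890 was at 0.14 ± 0.25 (SD, n = 7), reaching 0.61 on replicate 2, GH14769 at 0.01 ± 0.09 (SD, n = 7) and RE47050_ReAmp at 0.06 ± 0.20 (SD, n = 7). None of the 3 passed (adjusted p from 0.38 to 0.90, *limma*). Clone RH54761, shared by *sdt* and *Arr2*, was at -0.03 ± 0.11 (SD, n = 7; adjusted p = 0.79, *limma*).

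Around these genes, 7 lists of polarity and junction genes held 55 further single-gene clones of 47 genes. Of these 3 passed (5.45%, against 7.64% of all features), 1 positive and 2 negative. The median absolute mean of the 55 clones was 0.047, against 0.061 for all features. Both negative clones were those of *vari*, which encodes Varicose, a guanylate kinase scaffold of the septate junction. RE31492 ran from -0.52 to -0.03 with a median of -0.36 (mean -0.34 ± 0.18, SD, n = 7; adjusted p = 0.010, *limma*), and RH61449 ran from -0.57 to -0.06 with a median of -0.42 (mean -0.35 ± 0.19, SD, n = 7; adjusted p = 0.011, *limma*). Both were negative on 7 of 7 arrays and nearest 0 on replicate 1. They passed without any 1 array. Without replicates 2 and 5 together they did not pass (adjusted p = 0.061 and 0.070, *limma*), though their means of -0.32 and -0.32 were little changed. Nor did they pass on replicates 1, 4 and 6 alone, where the mutant was in Cy3 (means -0.29 and -0.32).

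The other 16 septate junction clones did not pass, among them those of *cora*, which encodes a FERM-domain protein, Coracle (-0.03 ± 0.22), and *kune*, which encodes a claudin (0.03 ± 0.12, SD, n = 7 for each). None of the 11 adherens junction clones passed or had an unadjusted p under 0.05 (*limma*), which 21.9% of all features had. Their means ran from -0.06 to 0.23. The same was so for the 7 clones of the Crumbs list, which added *yrt*, *kst*, *veli* and *Moe* to *crb* and *sdt* (-0.07 to 0.08), and for the 6 clones of planar cell polarity genes (-0.07 to 0.09). The list of Par complex genes and regulators held 5 clones, of which only that of *par-6* passed, and the list of the Scribble module and Par-1 held 8, of which only *scrib* SD05339 passed. *Patj*, *shg*, *arm* and *Cdc42* had no single-gene clone.

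Of the 10 clones for cortical polarity of neuroblasts, in which *par-6*, *aPKC* and *baz* also act, 1 passed. This was HL08040 of *pros*, which encodes a homeodomain protein passed to the smaller daughter cell at division. It ran from 0.12 to 0.49 with a median of 0.18 (mean 0.23 ± 0.13, SD, n = 7; adjusted p = 0.021, *limma*) and was positive on 7 of 7 arrays. It did not pass without replicate 3 (adjusted p = 0.066, *limma*) or without replicate 5 (adjusted p = 0.059, *limma*). Nor did it pass with the mutant in Cy3 alone, with the mutant in Cy5 alone or without replicates 2 and 5 (adjusted p = 0.076, 0.067 and 0.054, *limma*), where its means were 0.17, 0.27 and 0.18. The clones of *pins*, *mud*, *numb*, *brat*, *Galphai*, *pon* and *loco* had means from -0.07 to 0.07.

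**Figure D4:**
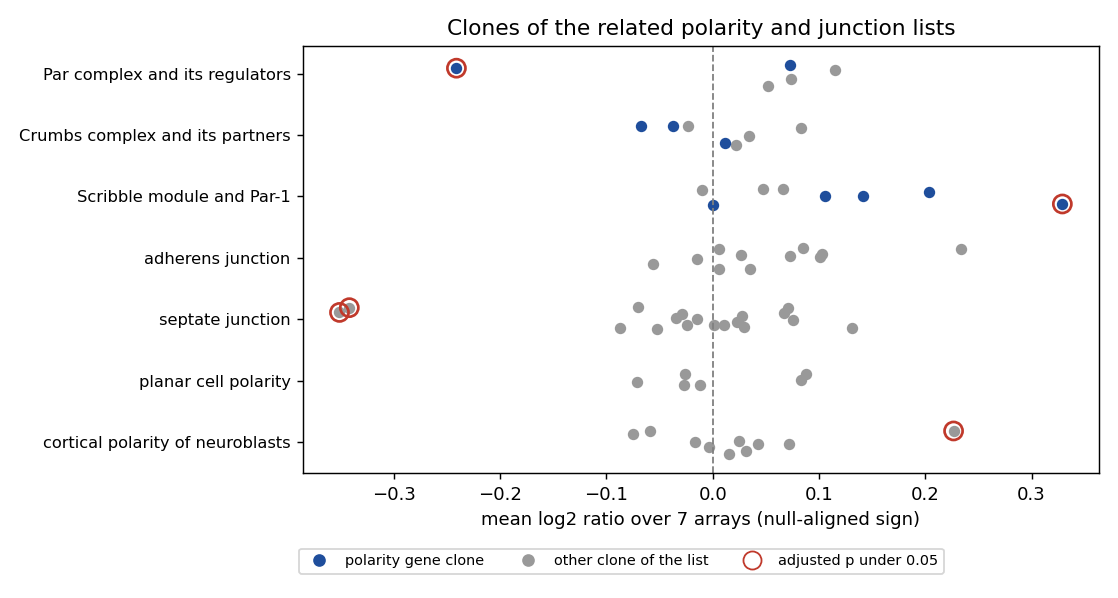
Mean log2 ratio over the 7 arrays (null-aligned sign) of every single-gene clone in 7 polarity and junction lists; blue points are the polarity gene clones, grey points other clones of the list, and a red ring marks an adjusted p under 0.05 (*limma*). The rings are on *par-6*, *scrib* SD05339, the 2 clones of *vari* and *pros*.

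Since ratios hold no levels, the tissue could not be checked from them. Among 39 clones of tissue markers 7 passed, where 7.64% of all features did (*limma*). None of the 8 for epidermis, the 10 for muscle or the 3 for germ line passed. Of these, 1, 0 and 2 had an unadjusted p under 0.05 (*limma*), against 21.9% of all features. Muscle means still ran from -0.38 to 0.05, with a median of -0.15. Those that passed were the clone of *serp* for tracheae (-1.19 ± 0.56), that of *nSyb* for neurons (-0.39 ± 0.19) and that of *Gs2* among 7 for glia (-0.62 ± 0.20, SD, n = 7 for each). Tracheae and neurons had only that 1 clone each, of 5 and 10 marker genes listed. The other 6 glial clones did not pass, and their means ran from -0.02 (*loco* GH08607) to 0.17 (*moody*). The median of the 7 was 0.02. Of 9 clones for hemocytes, both of *NimC4* (-0.37 and -0.35) and both of *Pxn* (0.39 and 0.21) passed, and the other 5 did not. The part of these tissue markers in the polarity gene values was not tested.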

How the data were processed

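RNA of *lolaORC4* and control embryos had been hybridized to 7 spotted cDNA arrays. The authors took GenePix intensities into *limma* (version not given in the sources used here), left the background uncorrected, applied print-tip loess to each array and then scaled the arrays to each other. Their deposited table holds log2 ratios, 1 for each feature on each array. The column medians lay between -0.01 and 0.02, and no value was missing. Loess assumes that most features do not change, and no intensities were used here, so dim clones could not be singled out.

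All log2 ratios were multiplied by -1 (null-aligned sign, after comparison with 596 matched features of the study's list for the null). *limma* 3.58.1 in R 4.3.3 estimated the mean of every feature (lmFit, eBayes) over all 7 arrays on 10376 features, 149 control spots included, with Benjamini-Hochberg adjustment and a threshold of 0.05, which the study's methods give for its null arrays. For *lolaORC4* the study tested its list for the null at a stricter rate, beside random draws of as many features from the whole array set. Each array is a matched pair, so the fit is a paired one. The procedure was tested first on simulated data with independent noise for each value. These data held no dye effect and no pattern shared between clones, so the test does not bear on either. Recovery of changes as small as those of *par-6* and *scrib* was not a condition of it. Clones of 1 gene were compared by exact sign-flip permutation tests in Python 3.11.15. Gene names came from the platform annotation (8598 features with 1 gene, 517 with several), updated by gene ID for 8454 features through a gene table (assembly Release 6 plus ISO1 MT); no coordinates are given. The number of arrays limits the precision, and p-values measure the spread between independently collected sample pairs.

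The members and lists were chosen with earlier results of these data known. Named in the text are all clones of the members, up to 4 clones past the threshold in each of the 7 related lists, and for each member clone past it the 2 most similar clones of other genes. Other list and marker genes were named after their values were seen. Alternatives were a dye coefficient, array weights, median centring, robust empirical Bayes, quantile normalization, omitting each array, each dye orientation alone, a threshold of 0.01, Benjamini-Yekutieli adjustment, leaving out control spots and averaging the clones of a gene. Leaving out replicates 2 and 5 together was added after seeing the data. Most polarity clones were high on those arrays, so leaving them out lowers such means by construction.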

Additional observations from a re-analysis of the deposited data

Results flagged for a closer look

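Of 18 clones examined for 1 array standing apart from the other 6, 1 was marked: *pros* clone HL08040 was at 0.49 on replicate 2, with the next array at 0.26 and the lowest at 0.12. Chance marks about 1 in 20 such groups, and 6.34% of all features were marked.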

How the results depend on the processing

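The number of polarity clones that passed was 2, also when any 1 array was left out (2 to 2), and 1 on the arrays with the mutant in Cy5 alone and with Benjamini-Yekutieli adjustment; in both, *par-6* was lost (adjusted p = 0.081 and 0.092, *limma*) and *scrib* SD05339 passed. Of the clones of related lists, 3 passed, with 2 to 3 when 1 array was left out. With the mutant in Cy3 alone none of those 3 passed, and 1 other did (*frtz* RE34143_ReAmp, mean -0.24, adjusted p = 0.034, *limma*). The number was 0 with Benjamini-Yekutieli adjustment, at a threshold of 0.01 and without replicates 2 and 5 (*limma*). Of the 55 clones, 4 had an unadjusted p under 0.05 on all 7 arrays (*limma*), against 21.9% of all features. Without replicates 2 and 5 the count was also 4. *scrib* SD05339 kept its sign and passed under all 17 alternative fits. Of the 8 clones that did not pass, none passed under any of them, and the mean took the other sign under 7 for *crb* and *l(2)gl*, 3 for *sdt* RE05272, and 2 each for *aPKC* RE60936 and *dlg1* GH15958. The clone pairs gave 0 calls on all 7 arrays, also after quantile normalization; with 6 arrays the smallest p is 0.031 (0.094 when 1 of 3 pairs differs), so leaving out an array says nothing of their stability. The fit to ratios of matched samples is itself the paired analysis.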
